A study of Mus musculus with 6 samples.

Results

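Choline is carried into cells and then takes one of 2 main routes. Most of it is phosphorylated, activated with CTP and joined to diacylglycerol to make phosphatidylcholine, the main phospholipid of animal membranes, and a smaller share is oxidised in mitochondria to betaine, a methyl donor and osmolyte. The 9 genes described here cover both routes and the entry step: the carriers Slc44a1 and Slc44a2, the oxidising enzymes Chdh and Aldh7a1, the choline kinases Chka and Chkb, the CTP-using enzyme Pcyt1a, the final transferase Cept1, and Pemt, which makes phosphatidylcholine by methylating phosphatidylethanolamine, chiefly in liver. Choline dehydrogenase, the product of Chdh, sits at the inner mitochondrial membrane and passes electrons to the respiratory chain.

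The genes were taken as every probe set whose platform annotation gives a single symbol, that of one of these 9 genes out of 18193 genes measured. This gave 21 probe sets: 4 each for Slc44a1 and Pcyt1a, 3 each for Slc44a2, Aldh7a1 and Chka, and 1 each for Chdh, Chkb, Cept1 and Pemt. All 9 genes were tested, since no filter on low signals was applied. The set was chosen by the high-ROS against low-ROS difference on these same arrays: Chdh was among the few genes called there, and the other 8 were added as its pathway with those results known. Values of the 9 genes in this comparison are therefore descriptions, given without a p-value of their own.

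Bone marrow holds common myeloid progenitors (CMP), which can form granulocytes and monocytes on one side and megakaryocytes and red cells on the other. The high-ROS group consisted of CMP of C57BL6 mice with strong fluorescence of H2-DCFDA, a dye that reports reactive oxygen species (ROS), and the low-ROS group of CMP with weak fluorescence. There were 3 arrays of high-ROS CMP and 3 of low-ROS CMP, and each sorted fraction was 15% to 20% of the CMP of marrow from femur, tibia and ilium. The labels used here give no age or sex, and nothing on how many mice a sample holds or whether samples of a group came from separate sorts, so the p-values speak only for the spread among these arrays, and that spread may be technical.

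The deposited values are linear signals, 1 per probe set and array, with array medians of 40.4 to 42.5. Differences below are on the scale of log2(signal + 16), high-ROS minus low-ROS, which understates the change of dim genes. The CMP gate markers Kit, Cd34, Fcgr3 and Fcgr2b all had signals above the median of all genes, 68.1, and none of the 4 was called between the groups. Kit was lower on every high-ROS array, at 545 ± 19.2 in high-ROS and 642 ± 96.9 in low-ROS CMP (SD, n = 3 each). The margin was narrow, with 559 on the highest high-ROS array and 561 on the lowest low-ROS array. Groups did not overlap for 13.4% of all genes. Some lists of markers of other marrow cells also differed in level, with 0 called in any list. Means were lower in high-ROS CMP for 6 of 9 megakaryocyte, 7 of 8 erythroid and 5 of 8 stem and multipotent progenitor markers, and higher for 6 of 9 monocyte and dendritic markers. Summed signals of the megakaryocyte markers were 821 to 1148 in high-ROS and 1506 to 1525 in low-ROS CMP, those of the stem and multipotent progenitor markers 991 to 1146 in high-ROS and 1137 to 1403 in low-ROS CMP, those of the erythroid markers 12132 to 13836 in high-ROS and 15255 to 15435 in low-ROS CMP, and those of the monocyte and dendritic markers 8771 to 11100 in high-ROS and 7037 to 7848 in low-ROS CMP. Of these 4 lists, the stem and multipotent progenitor sums overlapped narrowly between groups. Sums of the granulocyte markers overlapped more widely, at 59461 to 61771 in high-ROS and 57817 to 61894 in low-ROS CMP. Those of the mast cell, basophil and eosinophil, B cell, T and NK cell, and stroma lists overlapped too. Such sums follow the brightest genes of a list, such as Pf4 among megakaryocyte markers, at 666 in high-ROS and 1107 in low-ROS CMP. Of the 9 megakaryocyte markers, 3 had higher means in high-ROS CMP, and of the 9 granulocyte markers 4 were higher and 5 lower. Some markers of cells outside the CMP gate were bright in both groups. S100a8 averaged 12643 in high-ROS and 12746 in low-ROS CMP, and Cd79b 734 in high-ROS and 796 in low-ROS CMP. The purity of the sorted fractions was not tested. No marker was listed at 0. For the Gapdh controls, the signal near the 3' end over that near the 5' end, a measure of RNA integrity and labelling, was 2.997 to 4.53 in high-ROS and 2.54 to 3.19 in low-ROS CMP, with the highest value in high-ROS replicate 3. The same ratio of the beta-actin controls varied little, at 1.03 to 1.06 in high-ROS and 0.976 to 1.05 in low-ROS CMP. Only the Gapdh ratio was used as a covariate. In bulk samples, fewer cells of a type and less RNA per cell cannot be told apart, and the part of cell mixture and RNA quality in the differences below was not tested, apart from the Gapdh covariate and the left-out arrays given with them.

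The sequence around a transcription start is shown for Chdh, Chkb and Pcyt1a, the genes with at least 1 probe set, of 1, 1 and 4, on which the high-ROS and low-ROS arrays did not overlap. Groups did not overlap for 12.7% of all probe sets, and for 15.1% of those above the median signal. The sequences are from RefSeq, build GRCm38.p6, whose promoter windows used here cover 17 starts of 8 of the 9 genes, all but Aldh7a1, and run from 250 bases before the start to 50 after it, read along the gene's strand. Capitals mark matches, on either strand, to the letters TGACNNNGC, the core of the antioxidant response element.
Chdh, start 1, chr14:30008750-30009049, plus strand: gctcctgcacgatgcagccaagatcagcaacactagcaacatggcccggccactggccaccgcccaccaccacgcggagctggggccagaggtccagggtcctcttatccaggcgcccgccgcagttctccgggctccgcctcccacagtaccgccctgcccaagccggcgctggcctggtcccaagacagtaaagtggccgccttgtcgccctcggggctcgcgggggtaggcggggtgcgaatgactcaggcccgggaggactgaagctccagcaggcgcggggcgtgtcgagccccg
Chkb, chr15:89429878-89430177, minus strand: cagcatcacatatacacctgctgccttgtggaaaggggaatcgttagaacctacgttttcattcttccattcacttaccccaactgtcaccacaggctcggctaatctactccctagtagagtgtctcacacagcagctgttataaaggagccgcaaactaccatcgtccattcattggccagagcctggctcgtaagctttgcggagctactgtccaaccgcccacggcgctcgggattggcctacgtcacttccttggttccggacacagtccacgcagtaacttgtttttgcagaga
Pcyt1a, start 2, chr16:32430770-32431069, plus strand: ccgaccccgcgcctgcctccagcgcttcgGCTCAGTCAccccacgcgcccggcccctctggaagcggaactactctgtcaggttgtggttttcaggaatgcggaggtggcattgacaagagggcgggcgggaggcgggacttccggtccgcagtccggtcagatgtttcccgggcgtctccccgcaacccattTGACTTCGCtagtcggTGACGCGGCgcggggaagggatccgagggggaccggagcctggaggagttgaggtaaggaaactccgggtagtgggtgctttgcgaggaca

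These 3 motifs were searched on both strands: AGATAA, the letters bound by GATA factors, TGACNNNGC, and CACGTG, an E-box. They occurred in 11.2%, 12.4% and 7.15% of all 32851 RefSeq promoter windows of this length. The 3 Chdh windows and the Chkb window held no match to any of them. The Pcyt1a window shown held 3 matches to TGACNNNGC, the overlapping window of its start 1 held 1 and that of its start 3 held 0. The first Slc44a2 window held 1 match to TGACNNNGC, and the first Pemt window held 2 to AGATAA. The printed Chdh window had 70.3% G or C and 26 CpG pairs, and the Chkb window 51.7% and 14. These are matches of letters only and were not set against any binding data.

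Chdh lay higher in every high-ROS sample. Its signal was 703, 711 and 678 in high-ROS replicates 1 to 3, against 362, 384 and 350.3 in low-ROS replicates 1 to 3. The groups were far apart, and the ratio of any high-ROS array to any low-ROS array lay between 1.76 and 2.03 over all 9 pairs. The means were 697 ± 17.2 in high-ROS and 366 ± 17.1 in low-ROS CMP (SD, n = 3 each), a log2 difference of 0.90 (SE 0.125), or 1.87-fold. As a description of the same values that chose Chdh, since the call favours a small spread within groups, its pooled within-group SD on the log2 scale was 0.05, where the other 8 genes had 0.17 to 0.30 and the median over the 9096 genes above the median signal was 0.20. This rests on a single probe set, 1455435_s_at, whose suffix marks probes that may read more than 1 transcript.

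**Figure D1:**
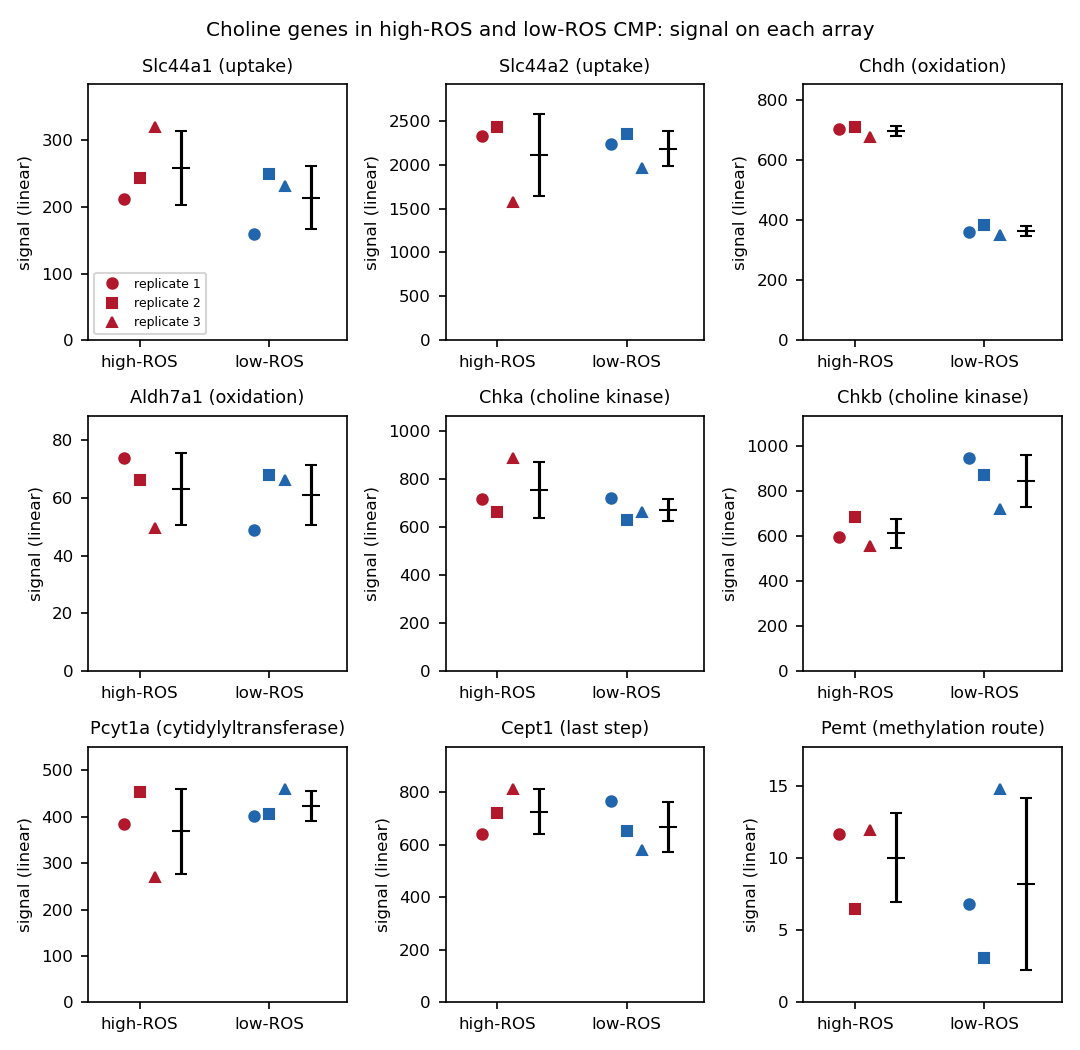
Deposited linear signal (y axis, from 0) of the brightest probe set of each of the 9 choline genes on each array, high-ROS in red and low-ROS in blue, with symbols for replicates 1 to 3 and black bars for mean ± SD (n = 3). Chdh lies at 678 to 711 in high-ROS and 350.3 to 384 in low-ROS CMP, Chkb is lower in high-ROS with no overlap, and the other 7 genes overlap.

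At an adjusted p under 0.05 in the fit across all genes (limma, Benjamini-Hochberg), 1 of the 9 genes, Chdh, was called higher in high-ROS CMP and 0 were called lower, where the shares over all 18193 genes were 0.0165% higher and 0.0385% lower. Since that call chose Chdh, the count carries no weight. With every probe set as its own feature, 0 of the 21 were called in either direction, against 0.00222% higher, 0.02% lower and 0.0222% in either direction of 45037, and Chdh passed there at a relaxed threshold of 0.1. The Chdh difference was 0.87 to 0.94 with any 1 array left out, but its call across genes was lost in each of those 6 fits. With the Gapdh ratio as a covariate the difference was 0.92, and the call was likewise lost. In all, Chdh was called in 6 of 17 other settings and not in 11. The 11 also include the fit without the mean-variance trend, a pseudocount of 64 and the replicate number as a block. They include, too, leaving out both high-ROS replicate 3 and low-ROS replicate 1. The 6 were a pseudocount of 1, quantile normalization, the median filter, array weights, the mean of probe sets and the threshold of 0.1. That last setting is the same fit, so any gene called at 0.05 passes it by construction.

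Aldh7a1 encodes an aldehyde dehydrogenase that oxidises betaine aldehyde, the product of Chdh, and also acts in lysine breakdown. Its brightest probe set, 1460167_at, gave 73.6, 66.1 and 49.4 in high-ROS replicates 1 to 3, and 48.9, 67.7 and 65.9 in low-ROS replicates 1 to 3. The groups overlapped fully, with a log2 difference of 0.04 (SE 0.23). Its other 2 probe sets were dim, at 10.4 to 33.3 in high-ROS and 10.7 to 46.4 in low-ROS CMP, with log2 differences of 0.01 and -0.03. No Aldh7a1 probe set separated the groups, and all 3 lay below the median signal of genes. The sign of the difference was negative without high-ROS replicate 1 (-0.06) or low-ROS replicate 1 (-0.08), and the difference was 0.29 with the Gapdh ratio as a covariate.

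Of the 2 kinases that phosphorylate choline, Chkb lay lower in high-ROS CMP. Chkb, whose loss in mice causes a muscular dystrophy, had signals of 597, 683 and 557 in high-ROS replicates 1 to 3 and 944, 869 and 719 in low-ROS replicates 1 to 3. The highest high-ROS array was still below the lowest low-ROS array, by a small margin. Means were 613 ± 64.4 in high-ROS and 844 ± 115 in low-ROS CMP (SD, n = 3 each), a log2 difference of -0.45 (SE 0.14). Of 17 other settings, 5 cannot move the difference of a gene with a single probe set, and in the other 12 it was -0.56 to -0.30. Chkb was not called across genes in any of the 17. A second probe set, annotated to Chkb, Cpt1b and Gm44502, was left out because it names 3 genes.

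Chka, the kinase isoform often raised in proliferating cells, gave no such separation. On its brightest probe set, 1450264_a_at, it had 717, 664 and 887 in high-ROS replicates 1 to 3 and 722, 630.4 and 662 in low-ROS replicates 1 to 3. High-ROS replicate 3 was the highest array and the groups otherwise overlapped, with a log2 difference of 0.16 (SE 0.14). The 3 probe sets did not match each other. Probe set 1453582_at read 117, 182 and 97.8 in high-ROS and 159, 215 and 199 in low-ROS CMP, a difference of -0.51 (SE 0.23), and 1442277_at gave -0.04 (SE 0.18). Averaged over its probe sets Chka had a difference of -0.13, and a fit that included the Gapdh ratio gave -0.06.

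Taking the log2 signal of Chka minus that of Chkb within each array removes any scaling shared by the array. Set to 0 at the low-ROS mean, this was 0.57, 0.28 and 0.97 in high-ROS replicates 1 to 3 and -0.06, -0.14 and 0.20 in low-ROS replicates 1 to 3 for the brightest Chka probe set. The groups did not overlap for this probe set or for 1442277_at (mean 0.41 in high-ROS), and did for 1453582_at (mean -0.07). The relative shift between the kinases thus depended on which Chka probe set was read. These values also contain the Chkb difference of -0.45 given above. They mostly restate it for 1442277_at, whose own difference was -0.04. They also do so for the brightest Chka probe set, with a mean of 0.61 in high-ROS and an own difference of 0.16. No share of non-overlapping groups was computed over all genes for such within-array differences.

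Pcyt1a encodes the enzyme that sets the rate of phosphatidylcholine synthesis from choline. All 4 of its probe sets had lower means in high-ROS CMP, with log2 differences of -0.21 (SE 0.19), -0.45 (SE 0.17), -0.21 (SE 0.17) and -0.20 (SE 0.22) for 1438011_at, 1450434_s_at, 1421957_a_at and 1424453_at. Probe set 1450434_s_at read 278, 285 and 217 in high-ROS replicates 1 to 3 and 407, 346 and 329 in low-ROS replicates 1 to 3. These groups did not overlap. Nor did they for 1421957_a_at, at 172, 149 and 188 in high-ROS and 190.1, 192 and 212 in low-ROS CMP, though by a narrow margin. The groups of the brightest probe set, 1438011_at, did overlap, at 384, 452 and 271 in high-ROS and 402, 406 and 460 in low-ROS CMP. On that probe set the low value of high-ROS replicate 3 carried most of the difference, which was -0.02 without that array. The difference of 1450434_s_at was -0.25 when high-ROS replicate 3 and low-ROS replicate 1 were both left out. For 1438011_at, the Gapdh ratio as a covariate turned the difference to 0.16.

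Cept1, which completes phosphatidylcholine by joining CDP-choline to diacylglycerol, had 641, 722 and 811 in high-ROS replicates 1 to 3 and 766, 652 and 578 in low-ROS replicates 1 to 3. The groups overlapped and the log2 difference was 0.12 (SE 0.15), or -0.06 with the Gapdh ratio as a covariate. Pemt was dim on every array. Its signals were 11.7, 6.48 and 11.9 in high-ROS and 6.80, 3.08 and 14.8 in low-ROS CMP, so its log2 difference of 0.13 (SE 0.19), which was -0.03 without low-ROS replicate 2, has no stable direction.

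The carriers bring choline into the cell, and Slc44a2 is also known, in humans, as a neutrophil surface antigen. It had 2326, 2426 and 1573 in high-ROS replicates 1 to 3 and 2237, 2346 and 1957 in low-ROS replicates 1 to 3 on probe set 1438559_x_at. Apart from the low value of high-ROS replicate 3 the arrays were alike, with a log2 difference of -0.07 (SE 0.16) that became 0.13 without that array, 0.18 with the Gapdh ratio as a covariate and 0.13 as the mean of its probe sets. Probe set 1428065_at gave 0.02 (SE 0.17). The dimmer 1438860_a_at, whose suffix marks probes shared by transcripts of 1 gene, gave 0.45 (SE 0.20), with 260, 196 and 169 in high-ROS and 142, 170.2 and 130.1 in low-ROS CMP. There the groups overlapped, since the lowest high-ROS array was just below the highest low-ROS array.

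Slc44a1, a choline carrier of the plasma membrane and mitochondria, had 212, 243 and 320 in high-ROS replicates 1 to 3 and 160.1, 249 and 232 in low-ROS replicates 1 to 3 on its brightest probe set. These overlapped, with a log2 difference of 0.26 (SE 0.21). Its other 3 probe sets were dim in both groups, at 4.94 to 31.0 in high-ROS and 12.2 to 36.2 in low-ROS CMP, with differences of -0.01, -0.20 and -0.16. Averaged over all 4 probe sets the difference was -0.03, and it was -0.08 when high-ROS replicate 3 and low-ROS replicate 1, the extremes of the first principal component, were both left out.

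**Figure D2:**
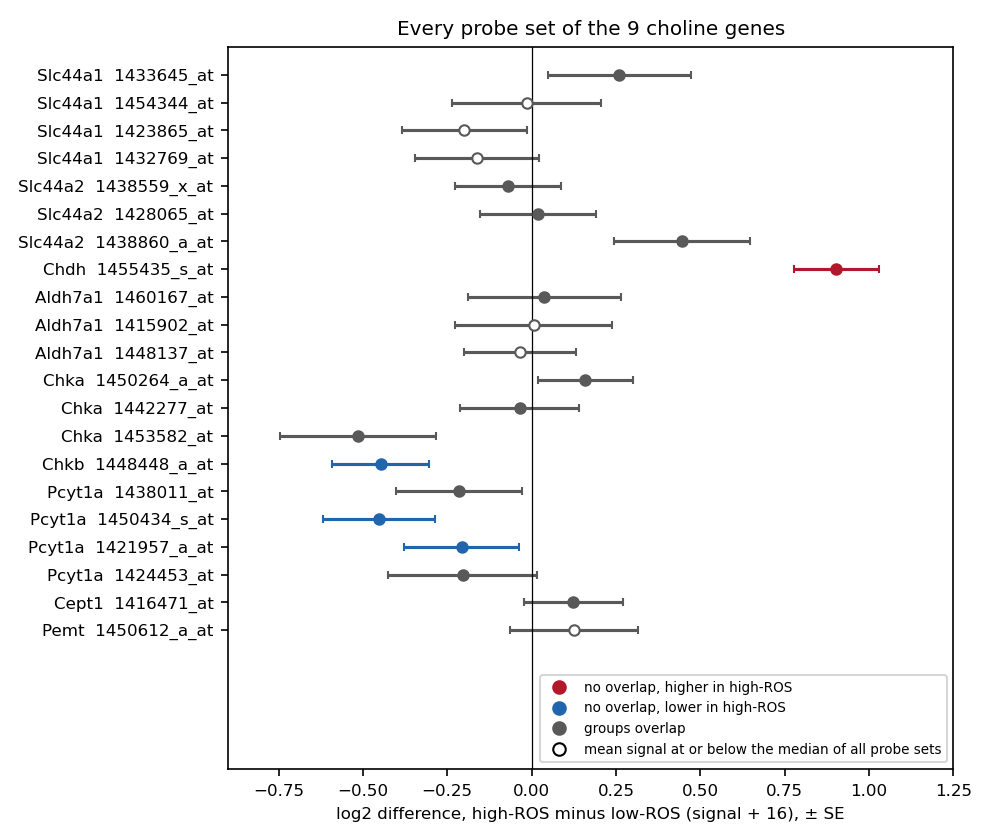
Log2 difference, high-ROS minus low-ROS, with its SE, for each of the 21 probe sets of the 9 choline genes. Open symbols have a mean signal at or below the median of all probe sets, 42.3. The Chdh probe set lies alone at 0.90, and 3 probe sets, of Chkb and Pcyt1a, are lower in high-ROS with no overlap between groups.

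Across the 21 probe sets 9 had a higher mean in high-ROS CMP and 12 a lower one, where the shares over all probe sets were 50.3% and 49.7%. The 21 had a median log2 difference of -0.03, against 0.00 over all probe sets. Groups did not overlap for 4 of the 21, 1 higher and 3 lower. Over all probe sets 12.7% did not overlap, with 6.72% higher and 5.95% lower, and 15.1% of those above the median signal, as all 4 were. Counting only the brightest probe set of each gene, 6 means were higher and 3 lower, against 54.0% and 46.0% of all genes, with a median of 0.12 against 0.02 over all genes. Groups did not overlap for Chdh, higher, and Chkb, lower, against 8.04% higher, 5.32% lower and 13.4% in either direction of all genes, and 16.5% of genes above the median signal. Of the 15 member probe sets above the median signal, high-ROS replicate 3 was the highest or lowest of the 6 arrays in 10, and over all 22518 probe sets above the median it was so in 53.4%. It was the lowest array in 7 of the 15, against 32.7% of those 22518. These 7 were probe sets of Slc44a2, Pcyt1a and Chka and the Chkb probe set.

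**Figure D3:**
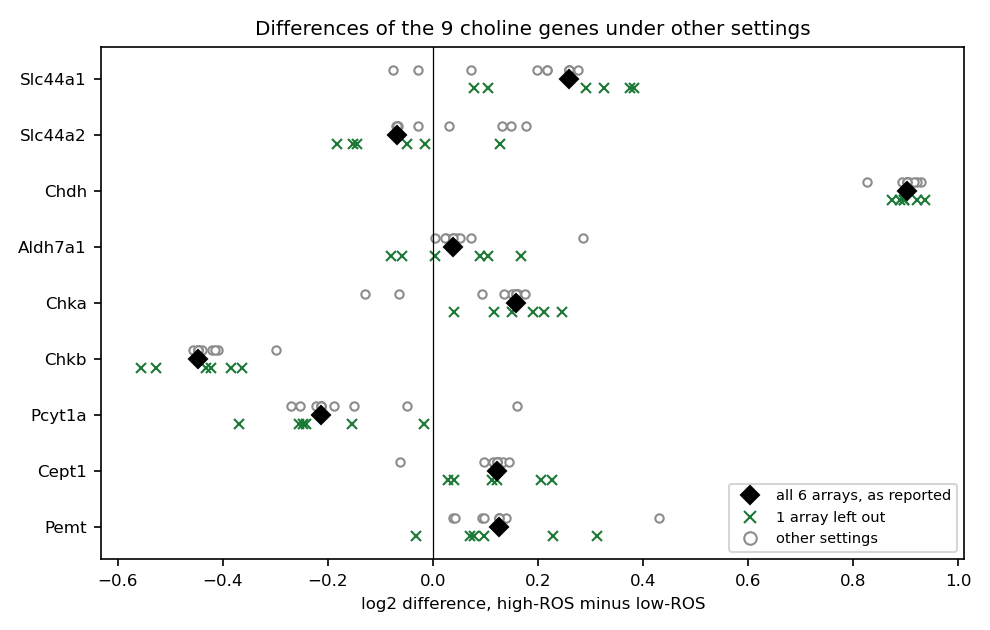
Log2 difference of each gene with all 6 arrays (black), with 1 array left out (green crosses) and under the other settings (open circles). Chdh stays between 0.83 and 0.94 and Chkb between -0.56 and -0.30, and the other 7 genes cross 0 in at least 1 setting.

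Genes with a pattern like that of Chdh over the 6 arrays were sought. Likeness was taken as the root mean square difference between gene-centred log2 values, among 9095 other genes above the median signal. The 5 nearest were Amot (0.08), an angiomotin of Hippo signalling, Fgd2 (0.09), an exchange factor for Cdc42, Mettl17 (0.10), needed for mitochondrial ribosomes, Arap2 (0.10), a GTPase-activating protein for Arf proteins, and Cacna1d (0.10), the pore subunit of an L-type calcium channel. Each had a log2 difference between 0.71 and 1.01. Having 6 arrays in 2 groups, any gene with a similar step between groups is near Chdh by this measure.

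Cacna1d is also the next protein-coding gene after Chdh in the RefSeq order of chromosome 14. Its signal was 449, 488 and 405 in high-ROS replicates 1 to 3 and 226, 205 and 227 in low-ROS replicates 1 to 3. The groups did not overlap, and the log2 difference was 0.97 (SE 0.149, limma adjusted p = 0.0623 over all genes). The gene on the other side, Il17rb, an interleukin 17 receptor subunit, had 133, 110.5 and 123 in high-ROS and 142, 91.1 and 58.8 in low-ROS CMP and overlapped, with a log2 difference of 0.35 (SE 0.27). One gene further out, Actr8 and Dcp1a had differences of 0.09 (SE 0.16) and 0.06 (SE 0.20). Of these 4 neighbours, looked up after the values were seen, Cacna1d alone had groups that did not overlap. Over all genes 13.4% did not overlap, and 16.5% of those above the median signal, as all 4 were.

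**Figure D4:**
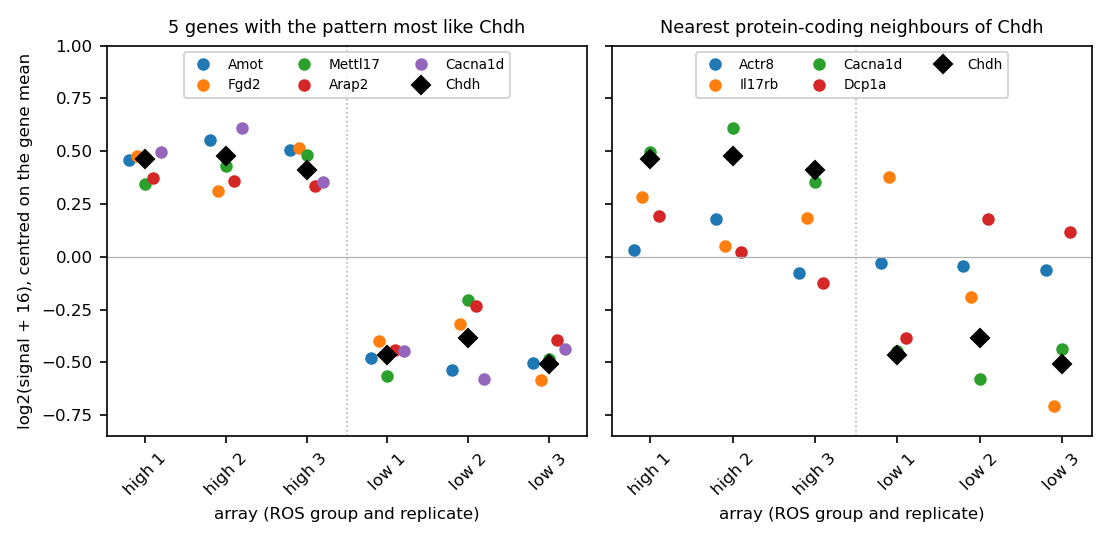
Log2(signal + 16) on each array, centred on the gene's mean over the 6 arrays, for Chdh (black) with the 5 genes of most similar pattern (left) and with its 4 nearest protein-coding neighbours (right). High-ROS arrays are left of the dotted line and low-ROS arrays right of it. The same Cacna1d values are drawn in both panels and show a step like that of Chdh, while the groups of Actr8, Il17rb and Dcp1a overlap.

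Beyond the 9 genes, 62 genes of choline and phospholipid metabolism were listed in 6 groups, and 56 were measured by a probe set of a single name. None was called in either direction (0 of 56, limma, adjusted p under 0.05 over all genes), where 0.055% of all genes were. At an unadjusted p under 0.05, 4 were higher and 3 lower, against 4.44% and 3.37% of all genes. Groups did not overlap for 5 higher and 4 lower genes of the 56, against 8.04% and 5.32% of all genes. Of the 56, 33 were above the median signal, and groups did not overlap for 4 higher and 3 lower of these. Over all 9096 genes above the median signal this held for 908 higher and 593 lower, or 16.5% in either direction. The same 33 held 4 higher and 3 lower genes at an unadjusted p under 0.05, against 509 and 408 of the 9096. Whether the lists differ from the background was not tested. The median log2 difference of the 56 was 0.06, against 0.02 over all genes. No alternative setting called any of them.

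Of the 15 measured genes of betaine use and the methyl-group cycle, 9 were at or below the median signal of genes and 6 above it. Among the 9, Bhmt, which passes a methyl group of betaine to homocysteine, averaged 14.9 in high-ROS and 12.5 in low-ROS CMP, and Dmgdh, which takes up its product dimethylglycine, 3.09 in high-ROS and 2.21 in low-ROS CMP. Sardh, the next enzyme after Dmgdh, averaged 8.79 in high-ROS and 9.75 in low-ROS CMP. Of the 15 genes, 10 had higher and 5 lower means and 0 were called. The 2 genes with the smallest p among those above the median signal were Shmt2, a mitochondrial serine hydroxymethyltransferase, at 661 ± 29.0 in high-ROS and 531 ± 58.6 in low-ROS CMP (log2 difference 0.31, SE 0.130), and Aldh9a1, which can also oxidise betaine aldehyde, at 1240.3 ± 98.8 in high-ROS and 1022 ± 131 in low-ROS CMP (0.28, SE 0.125). Both had groups that did not overlap, as did 16.5% of all genes above the median signal, and neither passed (adjusted p = 0.617 and 0.637, limma). For Aldh9a1 the margin was narrow, with 1148 on the lowest high-ROS array and 1144 on the highest low-ROS array.

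Among other choline carriers 3 of 6 measured means were higher and 3 lower, with 0 called. Flvcr1, known as a heme exporter and choline carrier, was the only one above the median signal, at 468 ± 109 in high-ROS and 393 ± 47.1 in low-ROS CMP (log2 difference 0.22, SE 0.19). In the parallel and shared steps of phospholipid synthesis, 6 of 10 means were higher and 4 lower, with 0 called. Lpin2, a phosphatidate phosphatase that supplies diacylglycerol, had 1238 ± 139 in high-ROS and 1572 ± 139 in low-ROS CMP (-0.34, SE 0.117, limma adjusted p = 0.568). Pisd, which makes phosphatidylethanolamine in mitochondria, had 211 ± 52.3 in high-ROS and 137 ± 20.7 in low-ROS CMP (0.56, SE 0.21, limma adjusted p = 0.587).

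In the list of phosphatidylcholine remodelling, breakdown and transfer, 9 of 15 means were higher and 6 lower, with 0 called. Pla2g15, a lysosomal phospholipase, had 461 ± 32.6 in high-ROS and 316 ± 58.6 in low-ROS CMP (log2 difference 0.54, SE 0.17, limma adjusted p = 0.545), and Lpcat1, which re-acylates lysophosphatidylcholine, 887 ± 186 in high-ROS and 1157 ± 144 in low-ROS CMP (-0.39, SE 0.16, limma adjusted p = 0.606). The sphingomyelin list had 3 of 6 means higher and 3 lower, with 0 called. Smpd1 and Smpd2, both sphingomyelinases, had log2 differences of 0.37 (SE 0.18) and 0.55 (SE 0.27), with groups that overlapped. All 4 acetylcholine genes lay below the median signal of genes, from 5.02 to 36.0 on average in high-ROS and 3.64 to 35.5 in low-ROS CMP, with 0 called.

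**Figure D5:**
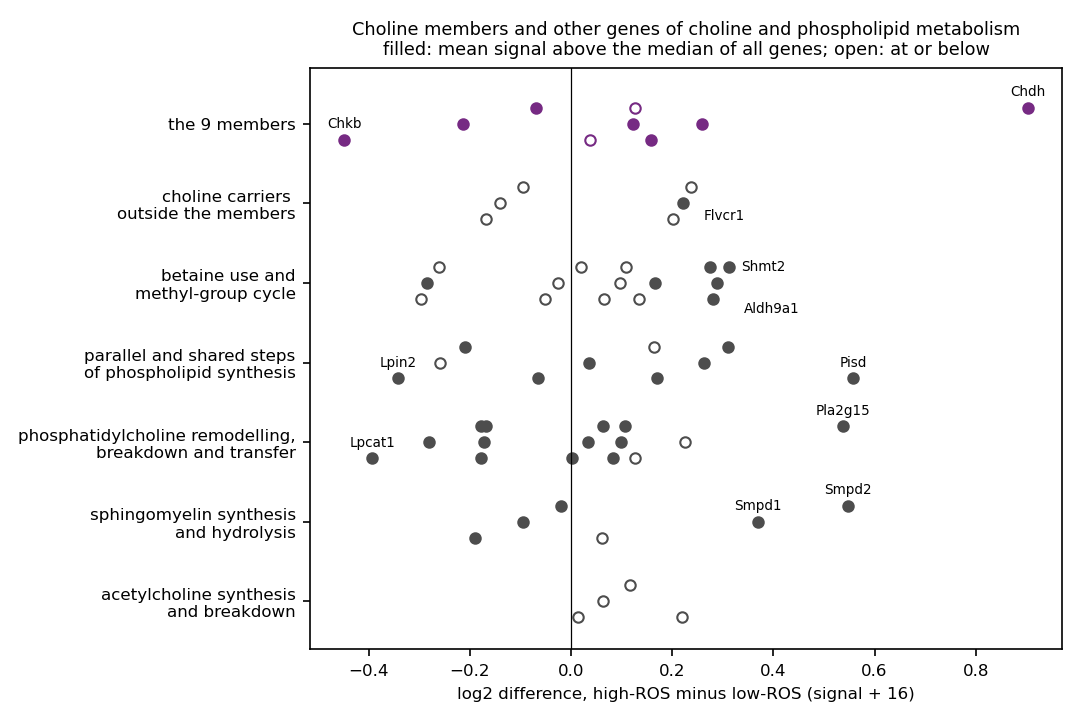
Log2 difference, high-ROS minus low-ROS, of the 9 choline genes (purple, top) and of the 56 measured genes of 6 related lists (grey). Filled symbols have a mean signal above the median of all genes, and names mark genes given in the text. The 56 genes lie between -0.39 and 0.56. Chdh, at 0.90, was chosen for its difference, so its place outside that range is no finding.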

How the data were processed

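Total RNA of sorted CMP was amplified and biotin-labelled with the NuGEN Ovation system and read on one-colour arrays, per the labels' protocols. The deposited values are 1 linear intensity per probe set and array; the authors' probe summary, scaling and genome build are not given in the sources used here. Of 45101 probe sets, 64 were controls, 34945 carried 1 symbol, 932 several and 9160 none in the platform annotation. The brightest probe set (highest mean log2 value) stood for a gene, and every other one was also tested. With 16 added and log2 taken, no further normalization was made, since array medians on that scale lay within 0.05. High-ROS was set against low-ROS with limma 3.58.1 in R 4.3.3 (lmFit, eBayes with a mean-variance trend, 2-sided, Benjamini-Hochberg over 18193 genes or 45037 probe sets, threshold 0.05), with 4 residual degrees of freedom. The steps were tested on simulated data. The number of arrays limits the precision, and an intensity has no counting error to give. Python 3.11.15 and matplotlib 3.10.9 made the tables and figures.

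Named in the text were all 9 choline genes, of each pathway list the genes called and the 2 with the smallest p above the median signal, the 5 genes most like Chdh, and Kit, Cd34, Fcgr3 and Fcgr2b; others, such as the neighbours of Chdh, were looked up after values were seen. The members and lists were chosen with earlier results of these data known. Alternatives were a fit with no trend, pseudocounts of 1 and 64, quantile normalization, a filter at the median signal, array weights, a block for replicate number, the Gapdh ratio as a covariate, leaving out arrays, averaging the probe sets of a gene and a threshold of 0.1.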

Additional observations from a re-analysis of the deposited data

How the results depend on the processing

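Of 17 alternative settings, 5 leave the difference of a gene with a single probe set as it is by construction (no trend, the median filter, the replicate block, the threshold of 0.1 and the mean of probe sets). In the other 12, Chdh (0.83 to 0.94) and Chkb (-0.56 to -0.30) kept their sign. The other 7 genes changed sign in 1 to 5 of all the settings that tested them, the mean of probe sets included. Counts of called genes held in few settings. Over all genes, limma called 3 higher and 7 lower in the main fit. The counts were 3 and 7 with a pseudocount of 1, and 2 and 7 with the mean of probe sets. They were 0 and 0 without the mean-variance trend, 0 and 4 with a pseudocount of 64, and 1 and 7 with quantile normalization. Tests above the median signal gave 5 and 11, array weights 13 and 17, and the Gapdh covariate 0 and 3. Leaving out both high-ROS replicate 3 and low-ROS replicate 1 gave 0 and 4, and an adjusted p under 0.1 gave 7 and 10. Leaving out 1 array gave 0 higher and 1 to 6 lower. Against 1 probe set higher and 9 lower, the counts were 0 and 0 without the trend, 0 higher with a pseudocount of 64, 2 higher with quantile normalization, 2 higher above the median signal, 10 and 23 with array weights, 0 higher with the Gapdh covariate, 0 higher without that pair of arrays, and 8 and 16 at 0.1. Leaving out 1 array gave 0 higher and 3 to 8 lower, while a pseudocount of 1 gave 1 and 9. The filter tests fewer features and the left-out arrays leave fewer samples; for the others the cause was not tested.

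With the replicate number as a block, 0 genes were higher and 4 lower, and 0 probe sets higher and 5 lower. The deviations of arrays with the same number correlated at 0.119, 0.0966 and 0.00275 for replicates 1 to 3. Those of high-ROS and low-ROS arrays with different numbers correlated at -0.126 to 0.0606. Whether the numbers pair the samples cannot be told from these values, and the main fit did not pair them. The other genes of choline and phospholipid metabolism had 0 calls in every setting. Dim signals limit what can be said of Pemt, Bhmt and the dim probe sets of Slc44a1.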

Other observations

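Outside the rule for named genes, 3 further genes of the related lists had groups that did not overlap. Lpcat2, an acyltransferase that acts on lysophosphatidylcholine and makes platelet-activating factor, averaged 844 in high-ROS and 1028 in low-ROS CMP (log2 difference -0.28). Bhmt2, a methyltransferase that uses S-methylmethionine, averaged 53.4 in high-ROS and 69.3 in low-ROS CMP (-0.30), and Chat, which makes acetylcholine, 7.53 in high-ROS and 4.14 in low-ROS CMP, far below the median signal of genes. None of the 3 passed the threshold over all genes (limma adjusted p = 0.619, 0.741 and 0.708).

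The probe set that names Chkb together with Cpt1b and Gm44502 read 17.2, 20.05 and 25.5 in high-ROS replicates 1 to 3 and 18.4, 15.7 and 13.99 in low-ROS replicates 1 to 3, with groups that overlap.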
